A study of Mus musculus with 4 samples.

Results

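The transcription factors that turn otic epithelial cells into spiral ganglion neurons were examined in whole cochleas of *Meis2* flox/flox; *Pax2* Cre/+ mutants and of wild-type embryos at E15. The set was chosen by name and comprised 9 genes: the bHLH genes *Neurog1*, *Neurod1*, *Neurod4*, *Nhlh1* and *Nhlh2*, the LIM homeobox gene *Isl1*, the POU homeobox genes *Pou4f1* and *Pou4f2* and the zinc finger gene *Scrt2*. Of these, 8 were each read by 1 probe set whose only platform symbol is that gene, so that 8 of the 19938 genes with such a probe set are described, and the table held 35556 probe sets in all. *Pou4f2* was matched to no probe set of its own here and has no value below. One Affymetrix Mouse Gene ST array was hybridized per sample, with 2 *Meis2* mutant samples (replicates 1 and 2) and 2 wild-type samples (replicates 2 and 3). The labels call the mutants *Meis2* ko, and by the methods they carried both floxed *Meis2* alleles and a Cre driven by *Pax2* regulatory sequences, so that recombination begins in the otic placode. The labels of the control embryos say only that they were wild type, with no mention of a floxed allele or of Cre. It is not stated whether each RNA came from 1 embryo or from a pool. Wild-type replicate 3 carried signals of both sexes (given below), as RNA of more than 1 embryo would. The p-values therefore describe the variation among these 4 arrays, which may be partly technical.

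Neurons of the spiral ganglion arise from the otic vesicle. Cells of its neurogenic domain switch on *Neurog1*, leave the epithelium as neuroblasts and then express *Neurod1*, *Neurod4* and the *Nhlh* genes while they exit the cell cycle, and *Isl1* and *Pou4f1* accompany their differentiation as sensory neurons. *Isl1* is also expressed in the prosensory epithelium of the cochlear duct, and the vestibular ganglion uses the same factors. Because RNA came from whole cochleas, fewer neurons and less RNA per neuron cannot be told apart in any value given here.

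For orientation, the 250 bases before the annotated start are shown for the 3 genes that passed the test between genotypes (*Neurod1*, *Isl1* and *Nhlh1*) and for *Nhlh2*, the close relative of *Nhlh1* that did not pass it. Capitals mark the E-box CANNTG, the core recognized by bHLH proteins, and TGACAG, the core bound directly by Meis proteins, each searched on both strands. The windows were taken from RefSeq (GRCm38.p6) and run 5′ to 3′ on the strand of the gene.
Neurod1 (chr2:79456637-79456886, minus strand): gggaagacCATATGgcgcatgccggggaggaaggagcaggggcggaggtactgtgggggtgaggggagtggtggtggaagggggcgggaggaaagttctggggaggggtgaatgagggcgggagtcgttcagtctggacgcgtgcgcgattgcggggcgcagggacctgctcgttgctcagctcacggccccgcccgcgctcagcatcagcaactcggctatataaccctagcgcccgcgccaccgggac
Isl1 (chr13:116309689-116309938, minus strand): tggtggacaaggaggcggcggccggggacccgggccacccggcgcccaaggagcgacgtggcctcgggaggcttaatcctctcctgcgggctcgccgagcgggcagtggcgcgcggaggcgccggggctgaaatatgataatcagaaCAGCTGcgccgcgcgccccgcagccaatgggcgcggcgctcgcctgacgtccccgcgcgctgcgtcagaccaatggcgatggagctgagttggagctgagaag
Nhlh1 (chr1:172057597-172057846, minus strand): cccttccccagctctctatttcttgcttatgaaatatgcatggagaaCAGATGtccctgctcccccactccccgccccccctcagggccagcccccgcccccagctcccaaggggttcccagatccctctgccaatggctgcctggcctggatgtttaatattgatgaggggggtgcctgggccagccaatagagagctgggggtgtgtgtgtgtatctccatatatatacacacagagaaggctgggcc
Nhlh2 (chr3:102009895-102010144, plus strand): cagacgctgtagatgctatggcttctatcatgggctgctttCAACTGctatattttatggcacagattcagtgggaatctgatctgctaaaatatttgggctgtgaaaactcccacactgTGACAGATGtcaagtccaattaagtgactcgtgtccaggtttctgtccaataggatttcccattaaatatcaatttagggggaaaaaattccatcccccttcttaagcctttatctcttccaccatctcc
The windows of *Neurod1*, *Isl1* and *Nhlh1* each held 1 E-box and no TGACAG. *Nhlh2* held 2 E-boxes, one of them overlapping a TGACAG, and *Pou4f1* held 2 E-boxes and 1 TGACAG. The windows of *Neurog1* and *Neurod4* held neither core. *Scrt2* was not matched to a promoter entry. Of 32851 RefSeq windows of this length, 66.2% held an E-box and 15.9% held TGACAG, so these matches are a description of the letters and say nothing on binding.

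Between the genotypes, *Neurod1* and *Isl1* fell in *Meis2* mutant cochleas, *Nhlh1* rose, and the other 5 measured genes did not pass the test. The decrease of *Neurod1* was the largest of the 8, to 39.0% of the wild-type signal with background included. *Isl1* was at 62.1% and *Nhlh1* at 125.4% of it. Genotypes were compared with limma, which moderates the variance of each probe set by that of all others, and p-values were adjusted by the method of Benjamini and Hochberg over the 35556 probe sets, with 0.05 as the threshold. Every difference is given in log2 units as mutant minus wild type. Of all probe sets, 37.3% passed that test, with 21.6% of all probe sets higher and 15.7% lower in mutants. The count of 3 of 8 genes, 1 higher and 2 lower, is therefore near the share of all probe sets and does not set these genes apart as a group. The arrays of each genotype did not overlap for 6 of the 8 genes (4 higher and 2 lower in mutants), where 76.1% of all probe sets did not overlap (49.7% higher and 26.4% lower). The median difference of the 8 genes was 0.08, against 0.11 for all probe sets, and became -0.01 after median scaling of the arrays.

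**Figure D1:**
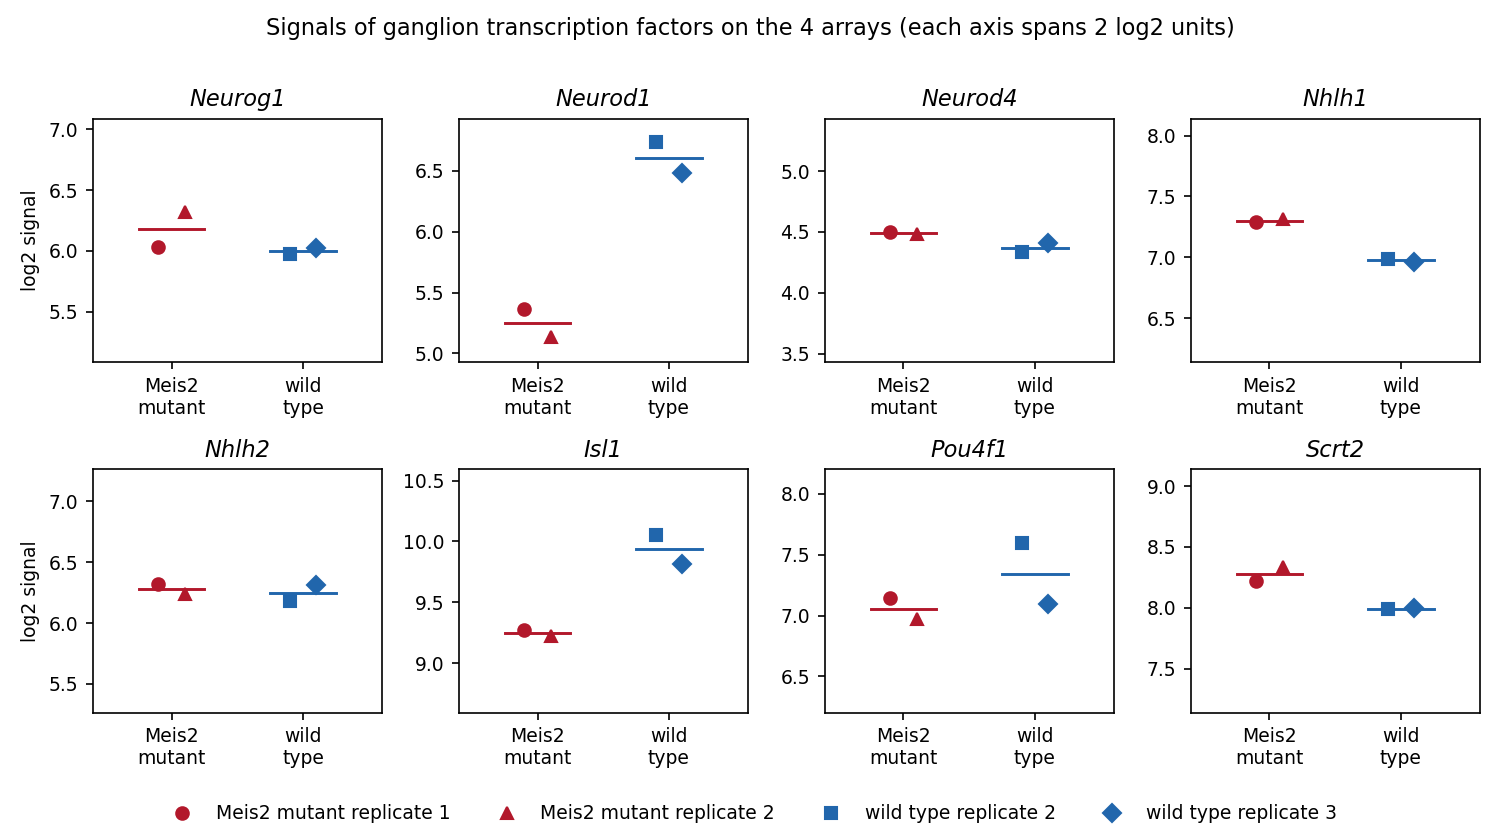
Log2 signal (y axis, 2 log2 units in every panel) of each measured gene on the 2 *Meis2* mutant arrays (left) and the 2 wild-type arrays (right). Points are single arrays and horizontal lines are the means. *Neurod1* and *Isl1* lie lower on both mutant arrays, while *Pou4f1* of wild-type replicate 3 lies beside the mutant values.

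*Meis2* itself had log2 signals of 9.61 and 9.80 in mutants, against 9.64 and 9.38 in wild type, which overlap. The *Meis2* signal was thus not lower in mutants (difference 0.19, limma adjusted p = 0.284) and does not check the genotype. Whether its probe set lies outside the deleted exons was not tested, nor was any other cause of this value. *Xist* was at 11.83 and 11.84 in the mutants, against 5.54 and 11.51 in wild-type replicates 2 and 3, while the Y-linked gene *Uty* was at 4.68 and 4.52 in the mutants, against 8.07 and 7.29 in wild type. Wild-type replicate 3 thus carried both signals, wild-type replicate 2 only that of *Uty*, and the mutants only that of *Xist*. Male RNA was present on both wild-type arrays and on neither mutant array, so its part in the results cannot be told apart from that of genotype. A scale of background signal was taken from 1035 probe sets of olfactory receptor genes, which are silent in most tissues outside the nose. Their median signal was 4.58 and their median difference was 0.18, and 17.8% of them were called higher. Dim signals thus lay slightly higher on the mutant arrays, a shift of about the size of the small positive differences given below. The upper quartile of all probe sets lay the other way, at 8.62 and 8.60 in mutants, against 8.67 and 8.71 in wild type. Centring on the olfactory receptor probe sets therefore moves bright genes by a shift measured on dim ones.

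*Neurog1*, the proneural factor that starts otic neurogenesis, had log2 signals of 6.03 and 6.32 in mutants, against 5.97 and 6.02 in wild type. The mutant values lay above the wild-type ones by no more than 0.01 at their nearest. *Neurog1* lay near background, not far above 5.79, the 95th percentile of signal of the olfactory receptor probe sets. The difference was 0.18 (standard error, SE, 0.12, 95% confidence interval, CI, -0.13 to 0.49, limma adjusted p = 0.282), equal to the background shift to 2 decimals. It was 0.04 without *Meis2* mutant replicate 2 and 0.32 without *Meis2* mutant replicate 1, neither past the threshold.

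*Neurod1* is switched on by *Neurog1* and is needed for the survival and differentiation of the ganglion neurons. Its log2 signals were 5.37 and 5.13 in mutants, against 6.74 and 6.48 in wild type. Both mutant arrays were low, and a gap of 1.11 separated the genotypes, while the arrays of one genotype were 0.24 (mutant) and 0.26 (wild type) apart. *Neurod1* averaged 5.25 ± 0.17 in mutants and 6.61 ± 0.18 in wild type (SD, n = 2 each), and fell by 1.36 (SE 0.13, 95% CI -1.71 to -1.01, limma adjusted p = 0.00428). The call held under all 12 other ways of processing that were tried, with differences between -1.54 and -1.23 and adjusted p up to 0.0301. The mutant mean lay within the range of signals of the olfactory receptor probe sets, whose 95th percentile was 5.79, and the wild-type mean lay above that percentile. The mutant signal is thus only an upper bound on expression. The wild-type mean was 1.76-fold above that percentile and 2.56-fold above the mutant mean.

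*Neurod4*, a bHLH factor of differentiating neurons that is induced after *Neurog1*, was at 4.50 and 4.48 in mutants, against 4.33 and 4.41 in wild type. All 4 values lay below the median signal of the olfactory receptor probe sets, and this was the only one of the 8 genes left out by a filter on dim probe sets. The difference of 0.12 (95% CI -0.09 to 0.33, adjusted p = 0.282 from limma) turned to -0.06 when the arrays were centred on those probe sets. *Neurod1* minus *Neurod4* within an array was 0.87 and 0.65 in mutants, against 2.40 and 2.07 in wild type. The change was -1.48 (exact permutation test, two-sided, p = 0.333, the smallest possible here). With *Neurod4* at background on all 4 arrays, this ratio says little beyond *Neurod1* itself.

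*Nhlh1* and *Nhlh2* encode closely related bHLH factors of young postmitotic neurons. *Nhlh1* was at 7.29 and 7.31 in mutants, against 6.99 and 6.96 in wild type. The arrays of one genotype were 0.02 apart in mutants and 0.02 apart in wild type, while the genotypes were 0.31 apart. *Nhlh1* rose by 0.33 (SE 0.08, 95% CI 0.13 to 0.53, limma adjusted p = 0.0296). The call ended without any one of the 4 arrays (adjusted p = 0.125 without *Meis2* mutant replicate 1, 0.146 without *Meis2* mutant replicate 2, 0.0678 without wild-type replicate 2 and 0.0809 without wild-type replicate 3), and also after median scaling (0.24, adjusted p = 0.0701), when the prior followed the mean signal (adjusted p = 0.0528) and with centring on the olfactory receptor probe sets (0.15, adjusted p = 0.216). *Nhlh2* was at 6.33 and 6.24 in mutants, against 6.18 and 6.31 in wild type, and the genotypes overlapped. It lay not far above the 95th percentile of the olfactory receptor probe sets (5.79). Its difference was 0.04 (95% CI -0.20 to 0.27, adjusted p = 0.777 from limma), and its sign turned in 5 of the 12 alternatives, among them median scaling (-0.05). *Nhlh1* minus *Nhlh2* within an array was 0.97 and 1.07 in mutants, against 0.81 and 0.65 in wild type, a change of 0.29 in the ratio (exact permutation test, two-sided, p = 0.333, the smallest that 2 arrays against 2 can give).

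*Isl1*, a LIM homeodomain factor of sensory neurons, was at 9.27 and 9.22 in mutants, against 10.05 and 9.82 in wild type. The mutant arrays were within 0.05 of each other and both lay at least 0.54 below the wild-type arrays. *Isl1* averaged 9.25 ± 0.04 in mutants and 9.94 ± 0.17 in wild type (SD, n = 2 each), and fell by 0.69 (SE 0.11, 95% CI -0.97 to -0.41, limma adjusted p = 0.0108). The difference was -0.71 without *Meis2* mutant replicate 1 and -0.66 without *Meis2* mutant replicate 2, and in both cases the call ended (adjusted p = 0.0532 and 0.0651). It held under the other 10 alternatives. *Sox2*, which marks the prosensory cells that also express *Isl1*, fell in the same arrays, to 7.57 and 8.13 in mutants, against 9.75 and 9.83 in wild type (adjusted p = 0.00435 from limma). In RNA of whole cochleas, the cells behind this fall were not identified. The paper reports a small basal patch of Sox2 staining in a shortened duct at E14, but a prosensory region that formed normally on sections. Other genes of the prosensory domain and of Notch signaling went both ways. *Hes1* and *Hey2* also fell, but *Notch1* rose by 0.71 and *Hey1* by 0.83, both calls lost without *Meis2* mutant replicate 2 (adjusted p = 0.0651 and 0.0658), while *Jag1* (-0.08, adjusted p = 0.713 from limma) and *Lfng* (0.13, adjusted p = 0.313) did not pass the test. Of 12 genes of the cochlear duct epithelium, 3 were higher, 1 lower and 8 not past the test. Among all probe sets, 21.6% were called higher and 15.7% lower. Of these 12 genes, 2 were higher and 2 lower after median scaling, and 2 were higher and 4 lower when centred on the olfactory receptor probe sets. The log2 of their summed signal was 14.14 and 14.20 in mutants, against 14.16 and 14.12 in wild type, which overlap. This sum weighs the brightest gene most, *Oc90*, which was at 12.73 on both mutant arrays, against 12.88 and 12.83 in wild type. The overlap therefore does not describe the other genes of the list. *Epcam* fell by 0.90, while *Pax2* rose by 0.97, *Tectb* by 0.60 and *Otoa* by 0.54. *Epcam* and *Pax2* were called in all 12 alternatives, *Tectb* in 10 and *Otoa* in 7. How much of the decrease of *Isl1* came from neurons and how much from the duct was not tested.

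*Pou4f1* encodes the POU homeodomain factor Brn3a of sensory ganglia. It was at 7.14 and 6.97 in mutants, against 7.60 and 7.09 in wild type. Wild-type replicate 2 was high, and wild-type replicate 3 lay between the mutant values. The difference was -0.29 (SE 0.19, 95% CI -0.77 to 0.19, limma adjusted p = 0.264). Wild-type arrays decided this value, which was -0.54 without wild-type replicate 3 (adjusted p = 0.0412 from limma) and -0.04 without wild-type replicate 2 (adjusted p = 0.834). *Scrt2*, a zinc finger repressor of the Snail and Scratch family expressed in postmitotic neurons, was at 8.22 and 8.34 in mutants, against 7.990 and 7.997 in wild type. The genotypes did not overlap, and the wild-type arrays were within 0.01 of each other. The difference of 0.29 (SE 0.08, 95% CI 0.07 to 0.51) lay just outside the threshold (adjusted p = 0.0529 from limma). It passed after repeated quantile normalization (0.35, adjusted p = 0.0378) and in a fit on probe sets with 1 symbol only (adjusted p = 0.031), and was 0.20 after median scaling (adjusted p = 0.135).

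**Figure D2:**
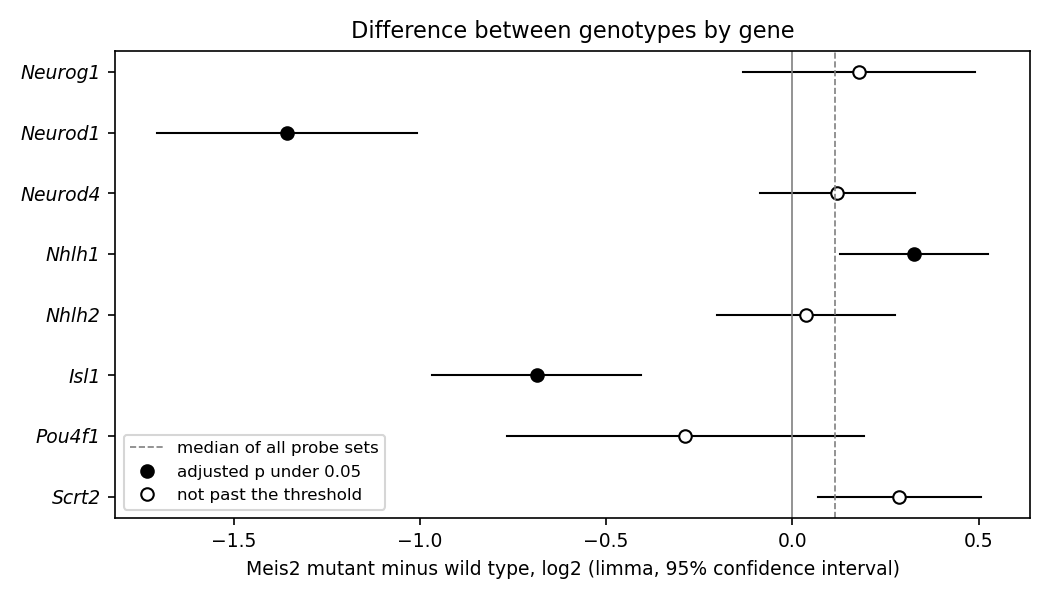
Difference between genotypes (x axis, *Meis2* mutant minus wild type, log2) for the 8 measured genes. Points are limma estimates from 2 arrays against 2, bars are 95% CIs, filled points passed an adjusted p of 0.05 and the dashed line is the median of all probe sets (0.11). The intervals of *Neurod1* and *Isl1* lie wholly below 0.

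**Figure D3:**
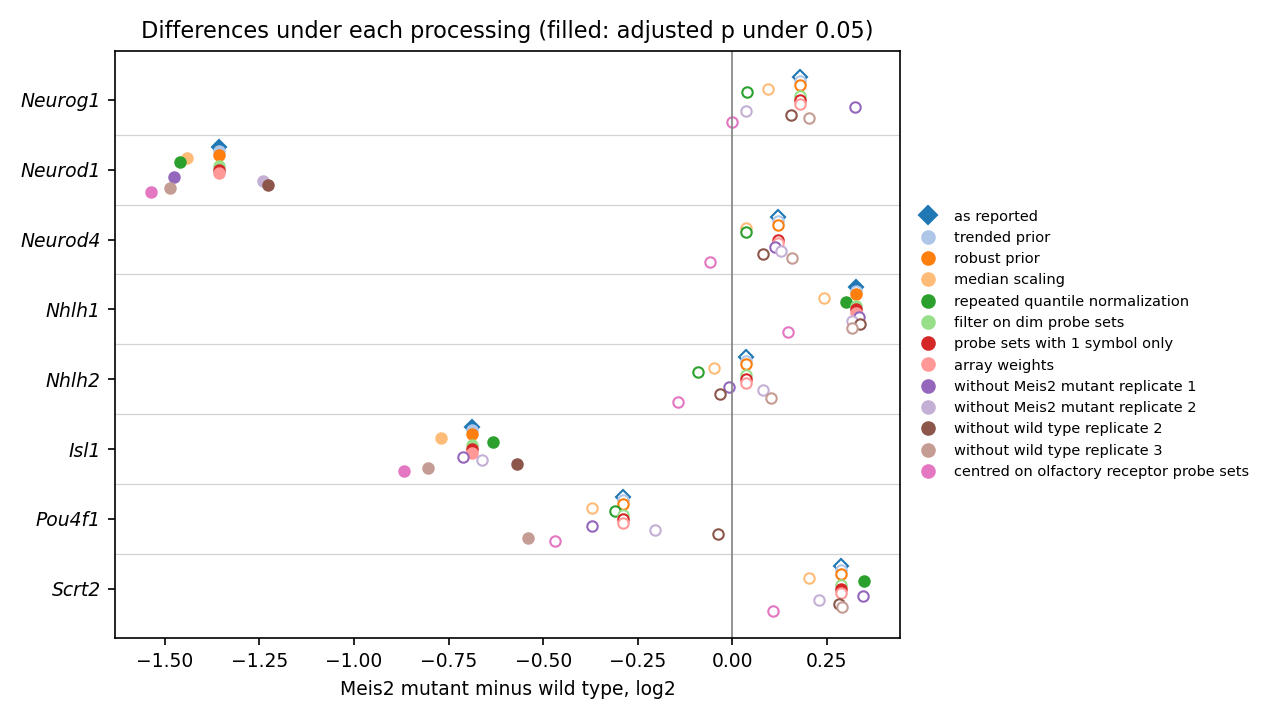
The same differences (x axis, log2) as reported (diamonds) and under each of the 12 alternatives (circles), filled where the adjusted p was under 0.05. All points of *Neurod1* are filled and lie between -1.54 and -1.23, while *Nhlh1* is filled in 5 of the 12 alternatives and *Nhlh2* lies on both sides of 0.

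Partners and antagonists of the bHLH factors were compared in the same fit, where 21.6% of all probe sets were called higher and 15.7% lower. Of 7 measured genes for E proteins, which pair with the proneural factors, and for Id proteins, which sequester E proteins, 1 was higher in mutants, 2 were lower and 4 did not pass the test, with a median of 0.11 (0.03 after median scaling, -0.07 when centred on the olfactory receptor probe sets). *Id2* was at 10.60 and 10.62 in mutants, against 12.03 and 12.14 in wild type, and fell by 1.47 (SE 0.08, limma adjusted p = 0.0026), which held in all 12 alternatives. *Id1* fell by 0.49 (adjusted p = 0.0195), a call that ended without either mutant replicate or without wild-type replicate 2 (adjusted p up to 0.10). *Tcf3*, which encodes the E proteins E12 and E47, rose by 0.57 (adjusted p = 0.00871, and 0.0616 without *Meis2* mutant replicate 2). Of 9 other measured proneural and neuronal bHLH genes, *Neurog3* alone passed the test (0.31, adjusted p = 0.0492 from limma). It lost the call in 9 of 12 alternatives, each array left out included. Its mean signals, 5.38 in mutants and 5.07 in wild type, lay below the 95th percentile of the olfactory receptor probe sets (5.79).

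Upstream of the ganglion factors, 18 genes of neurosensory competence and Notch signaling were measured, against shares of 21.6% higher and 15.7% lower among all probe sets. Of these genes, 8 were higher, 4 lower and 6 not past the test, with a median of 0.34 (0.26 after median scaling). Besides *Sox2*, the 3 that fell were *Fgf10*, *Hes1* and *Hey2*. *Fgf10*, a growth factor of the neurosensory domain, fell by 0.74 (adjusted p = 0.00788), and *Hey2*, a Notch effector, fell by 0.69 (adjusted p = 0.00762), each losing the call without *Meis2* mutant replicate 2 (adjusted p = 0.0535 and 0.053). *Tbx3*, a T-box repressor, rose by 0.53 (adjusted p = 0.00973), which ended without either mutant replicate (adjusted p up to 0.0628). The counts depended on single arrays, with 0 to 7 genes higher and 1 to 4 lower when one was left out. They also include *Chd7* as higher from its brightest probe set, although 17 of its 30 probe sets were called lower and 5 higher. The paper lists *Chd7* among the genes lower on its mutant arrays and also found it lower by qPCR, against the direction counted here.

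Further lists were read against the same shares of 21.6% higher and 15.7% lower among all probe sets. Among 21 LIM, POU and zinc finger relatives of *Isl1*, *Pou4f1* and *Scrt2*, 6 were higher, 2 lower and 13 not past the test (median 0.13, 0.05 after median scaling and -0.05 when centred on the olfactory receptor probe sets). These counts became 1 higher and 0 lower without either mutant replicate, 2 or 3 higher and 2 lower without a wild-type replicate, 3 higher and 3 lower after median scaling, and 2 higher and 5 lower when centred on the olfactory receptor probe sets. *Snai1*, of the same zinc finger family as *Scrt2* and known for its part in mesenchymal cells, was at 10.58 and 10.62 in mutants, against 9.18 and 9.01 in wild type, and rose by 1.50 (SE 0.09, adjusted p = 0.00272, called in all 12 alternatives). Both LIM-only genes that passed the test, whose products compete with LIM homeodomain proteins for the cofactor Ldb1, fell: *Lmo2*, known from blood and vessels, by 1.03 (adjusted p = 0.00961) and *Lmo4* by 0.45 (adjusted p = 0.0128). Without *Meis2* mutant replicate 1 or 2 both calls ended (adjusted p up to 0.0755). *Lhx1* rose by 0.51 (adjusted p = 0.0111), a call likewise lost in the absence of those arrays (adjusted p up to 0.0693). Of 16 other measured transcription factors of ganglion neurons, 5 were higher, 2 lower and 9 not past the test (median 0.17, 0.09 after median scaling and -0.01 when centred on the olfactory receptor probe sets), with 3 higher and 0 lower without either mutant replicate, 3 and 1 without wild-type replicate 3, and 3 and 3 after median scaling or when so centred. *Runx1* was at 10.52 and 10.26 in mutants, against 9.14 and 9.11 in wild type, and rose by 1.27. *Runx3* rose by 0.89 and *Ebf3* by 0.71 (adjusted p = 0.00365, 0.00365 and 0.00496 from limma). These 3 calls held in all 12 alternatives, but *Runx1* and *Ebf3* are also active in blood or mesenchyme, and the cells behind them were not identified. *Sox11*, which is expressed in differentiating neurons, fell by 0.69 (adjusted p = 0.0105, and up to 0.0601 without a mutant replicate).

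Neuronal genes that act later than these factors were compared next. Of 32 neuronal differentiation genes, 10 were lower, 3 higher and 19 not past the test (median -0.07, with -0.15 after median scaling, -0.00 after repeated quantile normalization and -0.25 when centred on the olfactory receptor probe sets), where 15.7% of all probe sets were called lower and 21.6% higher. Centred on the olfactory receptor probe sets, 12 were lower and 0 higher. *Nefl*, the light neurofilament chain, fell by 1.63 and *Gap43*, a growth cone protein, by 1.19, both in all 12 alternatives (adjusted p up to 0.0284). *Slc17a6*, the vesicular glutamate transporter, was at 6.51 and 6.30 in mutants, against 7.13 and 7.36 in wild type, and fell by 0.84. *Stmn2*, a tubulin-binding protein of growing axons, fell by 0.59 (adjusted p = 0.00956 and 0.0123 from limma, and 0.0551 and 0.0739 without *Meis2* mutant replicate 2). The count of 10 was 2 without *Meis2* mutant replicate 2, 6 without *Meis2* mutant replicate 1, 6 without wild-type replicate 3 and 11 without wild-type replicate 2, and the count of 3 higher was 1 without wild-type replicate 2 and 0 without any one of the other arrays. Of 11 general markers of ganglion neurons, 4 fell (*Elavl4*, *Stmn2*, *Gap43* and *Nefl*). *Elavl4* fell by 0.52 and was called in 10 of the 12 alternatives. The other 7, which include *Tubb3*, *Elavl3*, *Prph*, *Ntrk2*, *Ntrk3* and *Gata3*, differed by -0.39 to 0.39 without passing the test. *Gata3* had the highest of these differences (0.39, adjusted p = 0.053 from limma), and its genotypes did not overlap. *Tubb3*, the neuronal tubulin, averaged 7.84 ± 0.06 in mutants and 7.80 ± 0.02 in wild type (SD, n = 2 each). *Prph* was at 7.07 and 8.47 on the 2 wild-type arrays, which shows how far they differed from each other for some neuronal genes.

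**Figure D4:**
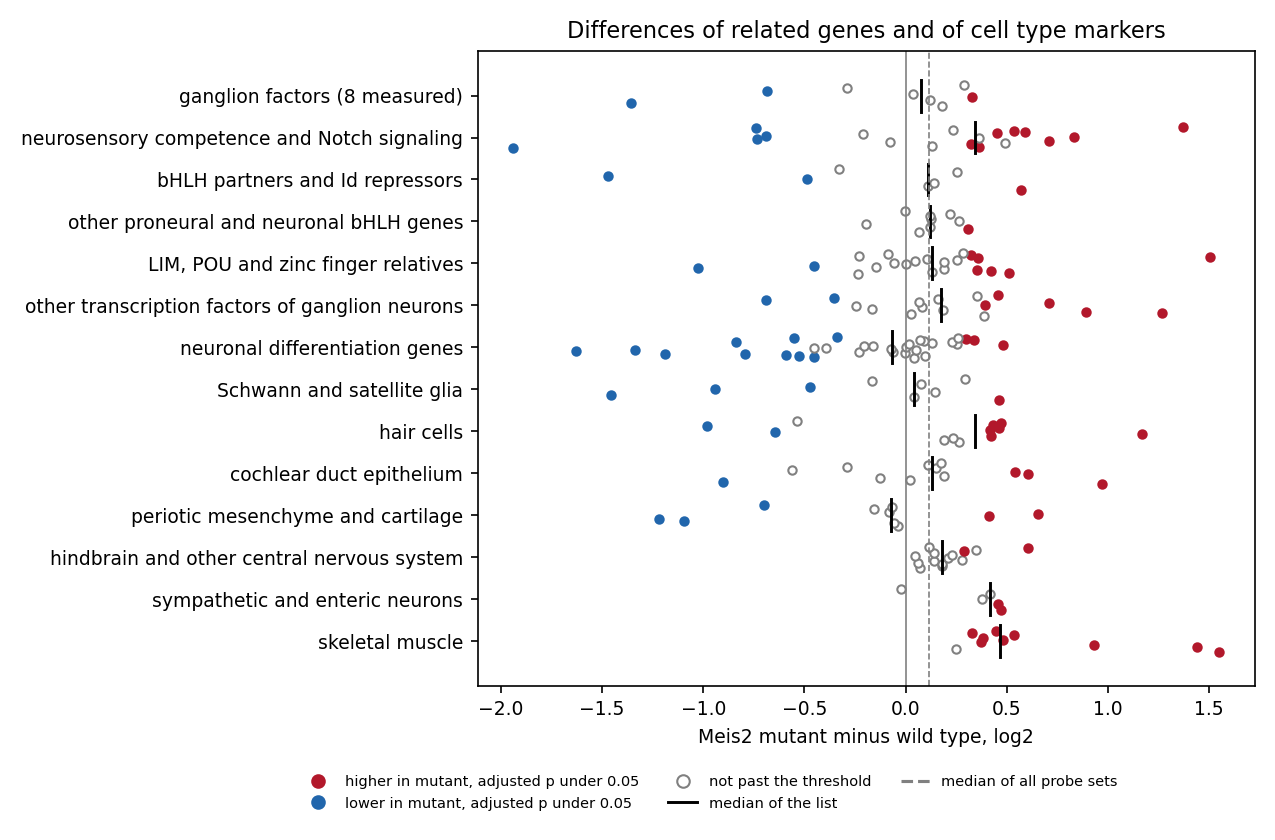
Difference between genotypes (x axis, *Meis2* mutant minus wild type, log2) of single genes (points) in each list (rows), with the 8 ganglion factors at the top. Filled points passed an adjusted p of 0.05, black bars are the medians of the lists and the dashed line is the median of all probe sets (0.11). The neuronal differentiation genes spread to both sides, with 10 lower and 3 higher.

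Markers of other cell types are given beside these values, where 21.6% of all probe sets were called higher and 15.7% lower. Among 9 measured genes of Schwann and satellite glia, the companions of the neurons, 3 were lower, 1 higher and 5 not past the test, and the log2 of their summed signal was 13.10 and 13.14 in mutants, against 13.63 and 13.80 in wild type. *Fabp7*, a lipid-binding protein of immature glia, fell by 1.45 and *Cdh19*, a cadherin of Schwann cell precursors, by 0.94, and both calls held in all 12 alternatives. The lower sum rested on *Fabp7*, since without it the summed signal was 12.59 and 12.66 in mutants, against 12.60 and 12.65 in wild type, which overlap. *Sox10*, the transcription factor common to Schwann and satellite cells, rose by 0.46 (limma adjusted p = 0.0271), which was lost without any one array, after median scaling and when centred on the olfactory receptor probe sets (adjusted p up to 0.127). *Erbb3* (0.14), *Mbp* (0.08) and *Foxd3* (0.04) did not pass the test. Of 10 skeletal muscle genes, 9 were higher and 1 did not pass the test, and their summed signal was 10.68 and 11.21 in mutants, against 9.89 and 10.18 in wild type. The count of 9 was 3 without *Meis2* mutant replicate 1, 1 without *Meis2* mutant replicate 2, 1 without wild-type replicate 2, 6 without wild-type replicate 3, 4 after median scaling and 2 when centred on the olfactory receptor probe sets. Of 5 measured genes of sympathetic and enteric neurons, which also use *Isl1*, 2 were higher (summed signal 8.62 and 8.77 in mutants, against 8.23 and 8.45 in wild type), a count that was 0 without any one array but wild-type replicate 3, without which it was 3, and 0 when centred on the olfactory receptor probe sets. Of 14 genes of the hindbrain and other central nervous system, 2 were higher (summed signal 10.66 and 10.67 in mutants, against 10.46 and 10.45 in wild type), below the share of all probe sets, and 12 did not pass the test. The count of 2 was 0 without *Meis2* mutant replicate 2 and 1 without any one of the other arrays. Of 12 hair cell genes, 6 were higher and 2 lower (summed signal 11.29 and 11.44 in mutants, against 11.36 and 11.61 in wild type), but 1 or 2 were higher and 0 to 3 lower when one array was left out, and 1 was higher and 3 were lower when centred on the olfactory receptor probe sets. Of 10 genes of periotic mesenchyme and cartilage, 2 were higher, 3 lower and 5 not past the test. Their median was -0.07, with -0.16 after median scaling and -0.25 when centred on the olfactory receptor probe sets. The part of these cells in the differences of *Neurod1*, *Isl1* and *Nhlh1* was not tested.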

How the data were processed

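RNA from whole E15 cochleas was amplified with the WT Expression Kit and hybridized to Affymetrix Mouse Gene ST arrays. The deposited log2 values are those the authors computed with RMA (background-corrected and normalized signals summarized per probe set), and the build mm8 is named in the submitters' processing notes. Scanner files were not used here. Of 35556 probe sets, 21789 carried 1 gene symbol, updated through RefSeq for 21698. Genotypes were compared with limma 3.58.1 in R 4.3.3 (lmFit, eBayes) on all probe sets without a filter, with 2 residual and 2.91 prior degrees of freedom, in place of the study's SAM, for which 4 arrays allow too few relabelings. The number of arrays limits the precision. A gene with several probe sets is given by the brightest. The code was tested on simulated data.

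The genes and the 14 lists of related genes and markers (176 of 186 genes measured) were chosen with earlier results of these data known. Named were all 8 measured members, *Meis2* and up to 4 genes with the smallest p of most lists. Hair cells, hindbrain, sympathetic and enteric neurons and skeletal muscle are given by counts and summed signals only. Mesenchyme and cartilage are given by counts and medians only. *Hes1*, *Hey1*, *Notch1*, *Jag1*, *Lfng*, *Chd7*, *Erbb3*, *Mbp*, *Foxd3* and further ganglion markers were named after their values were seen. Alternatives were a trended and a robust prior, median scaling, repeated quantile normalization, weights per array, a fit without the 25% dimmest probe sets, a fit restricted to probe sets with 1 symbol, omission of each array in turn and, added after seeing the data, centring on olfactory receptor probe sets. With an array omitted, the lone remaining array of that genotype is assumed to vary like the other genotype's.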

Additional observations from a re-analysis of the deposited data

How the results depend on the processing

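Each of the 12 alternatives kept the direction of *Neurod1*, *Isl1*, *Nhlh1*, *Pou4f1* and *Scrt2*. *Neurod1* passed the threshold in 12 of 12, *Isl1* in 10, *Nhlh1* in 5, *Scrt2* in 2 and *Pou4f1* in 1. The sign of *Nhlh2* turned after median scaling (-0.049), after repeated quantile normalization (-0.092), when centred on the olfactory receptor probe sets (-0.14), and ranged over -0.032 to 0.10 when one array was left out, negative without *Meis2* mutant replicate 1 and without wild-type replicate 2. With centring on the olfactory receptor probe sets *Neurod4* was at -0.060 and *Neurog1* at -0.00039. The number of the 8 genes called higher, 1 as reported, was 0 with a trended prior, after median scaling and when centred on the olfactory receptor probe sets, 2 after repeated quantile normalization and 2 with probe sets of 1 symbol only, and 0 when any one array was left out. The number called lower, 2 as reported, was 1 to 3 when one array was left out. Over all probe sets, 7695 were called higher and 5573 lower. The first count was 5062 after median scaling, 3292 when centred on the olfactory receptor probe sets and 1998 to 5470 when one array was left out, and the second was 2613 to 5425 when one array was left out. The share of calls that were lower was 42.0%, 56.0% after median scaling and 70.8% when centred on the olfactory receptor probe sets. In the lists of related genes and markers, 48 genes were called higher, with 25 after median scaling and 17 when centred on the olfactory receptor probe sets. The cause of these changes was not tested. *Pou4f1* against *Pou4f2* could not be computed. *Neurod4* was left out by the filter on dim probe sets. No paired analysis was possible because the genotypes share only 1 replicate number.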

Other observations

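Among 21788 other probe sets with 1 symbol, those whose profile over the 4 arrays, each centred on its own mean, lay closest to that of *Neurod1* were *Zfp820*, a zinc finger gene, *Orc4*, a subunit of the origin recognition complex, and *Rsrc2*. Their root mean square differences from *Neurod1* were 0.033, 0.038 and 0.040 on the log2 scale over 4 arrays. *Orc4* was at 7.25 and 7.05 in mutants, against 8.57 and 8.30 in wild type, and *Rsrc2* at 8.08 and 7.88 in mutants, against 9.44 and 9.28 in wild type. With 4 arrays and 37.3% of all probe sets past the test, such likeness is a description of these arrays only.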
